A study of Macaca mulatta with 32 samples.

Results

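The circRNAs spliced from 8 axon guidance genes were described across the rhesus macaque brain. Members were all circRNAs that the deposited table assigns by gene symbol to SLIT2, SLIT3, ROBO1, ROBO2, DCC, UNC5C, UNC5D or SRGAP3, which gave 84 of the 52828 circRNAs listed. The table covers 32 libraries, 4 from each of 8 regions: prefrontal (PFC), posterior cingulate (PCC), temporal (TC), parietal (PC) and occipital cortex (OC, taken at the primary visual area), hippocampal CA1, dentate gyrus (DG) and cerebellar cortex (CB). Healthy, socially housed animals of 10 or 20 years were used, and each library held the mixed RNA of 2 animals of one sex and age, so that 4 pools (10F, 10M, 20F and 20M) of 8 animals in all were sampled in every region. Libraries of a pool therefore share animals, single animals cannot be resolved, and p-values measure the spread between pooled libraries.

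Slit proteins are secreted ligands that repel growing axons through Robo receptors. Netrins act through DCC, which mediates attraction, and through the UNC5 receptors, which mediate repulsion alone or with DCC. SRGAP3 is neither a ligand nor a receptor but a cytoplasmic GTPase-activating protein that can bind Robo receptors and acts on the actin skeleton. Several of these genes stay active in the adult brain, where their proteins bear on synapses and dendrites, which was not measured here. A circRNA arises when the end of an exon is joined back to an upstream start, and it is counted by reads across that junction.

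Values are given as back-splice reads and as deposited TPM, which in each library is a whole number of reads multiplied by one constant and is not divided by length. The libraries held 18813 to 894932 back-splice reads (median 179118), and no value stands for fewer than 2 reads. A value of 2 reads corresponded to between 0.576 TPM (CA1_20M) and 37.4 TPM (CB_10F), so a circRNA listed at 0 in CB_10F could have been present at a level seen elsewhere. Libraries had 1 to 16 of the 84 circRNAs (median 8), and across the 32 libraries this number followed depth, with a Spearman correlation of 0.625 against 0.637 for the number of all circRNAs. Marker lists for the regions could be checked only in part, since circRNAs from the CA1 and DG lists were not in the table. Of 12 cerebellar genes 8 were measured, and their summed TPM was 74.8 to 120 in CB and 0 to 110 elsewhere. The summed TPM of 4 measured neocortex genes was 145 to 628 in the neocortex and 52.1 to 150 in CB. Of glial genes, 4 astrocyte genes were at 0 in all CB libraries and at 0 to 34.5 elsewhere, 4 oligodendrocyte genes were at 0 to 9.02 in CB and 0 to 91.0 elsewhere, and the 1 measured microglia gene was at 0 to 6.01 in CB and 0 elsewhere.

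The 8 genes differed widely in the number of their circRNAs. DCC had 23, ROBO2 19, UNC5D 14, UNC5C 9, SLIT3 6, SRGAP3 6, ROBO1 4 and SLIT2 3. By the table's annotation 72 of the 84 lay in exons (85.7%, against 83.7% of all circRNAs with a gene symbol) and 12 in introns. The filter of the study's methods kept 25 of the 84 (29.8%), against 33.6% of circRNAs with a symbol. These were 7 of DCC, 6 of ROBO2, 4 of ROBO1, 4 of UNC5D, 3 of UNC5C and 1 of SLIT2, and none of SLIT3 or SRGAP3. The joined ends of the 84 were a median of 16636 bases apart, against 6292 bases over all circRNAs with a symbol. Most were rare: 50 of the 84 (59.5%) were found in a single library, against 53.1% of circRNAs with a symbol, and the median was 10 reads in all libraries together, against 14. The plot of joined ends shows how the circles lie in each gene.

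**Figure D1:**
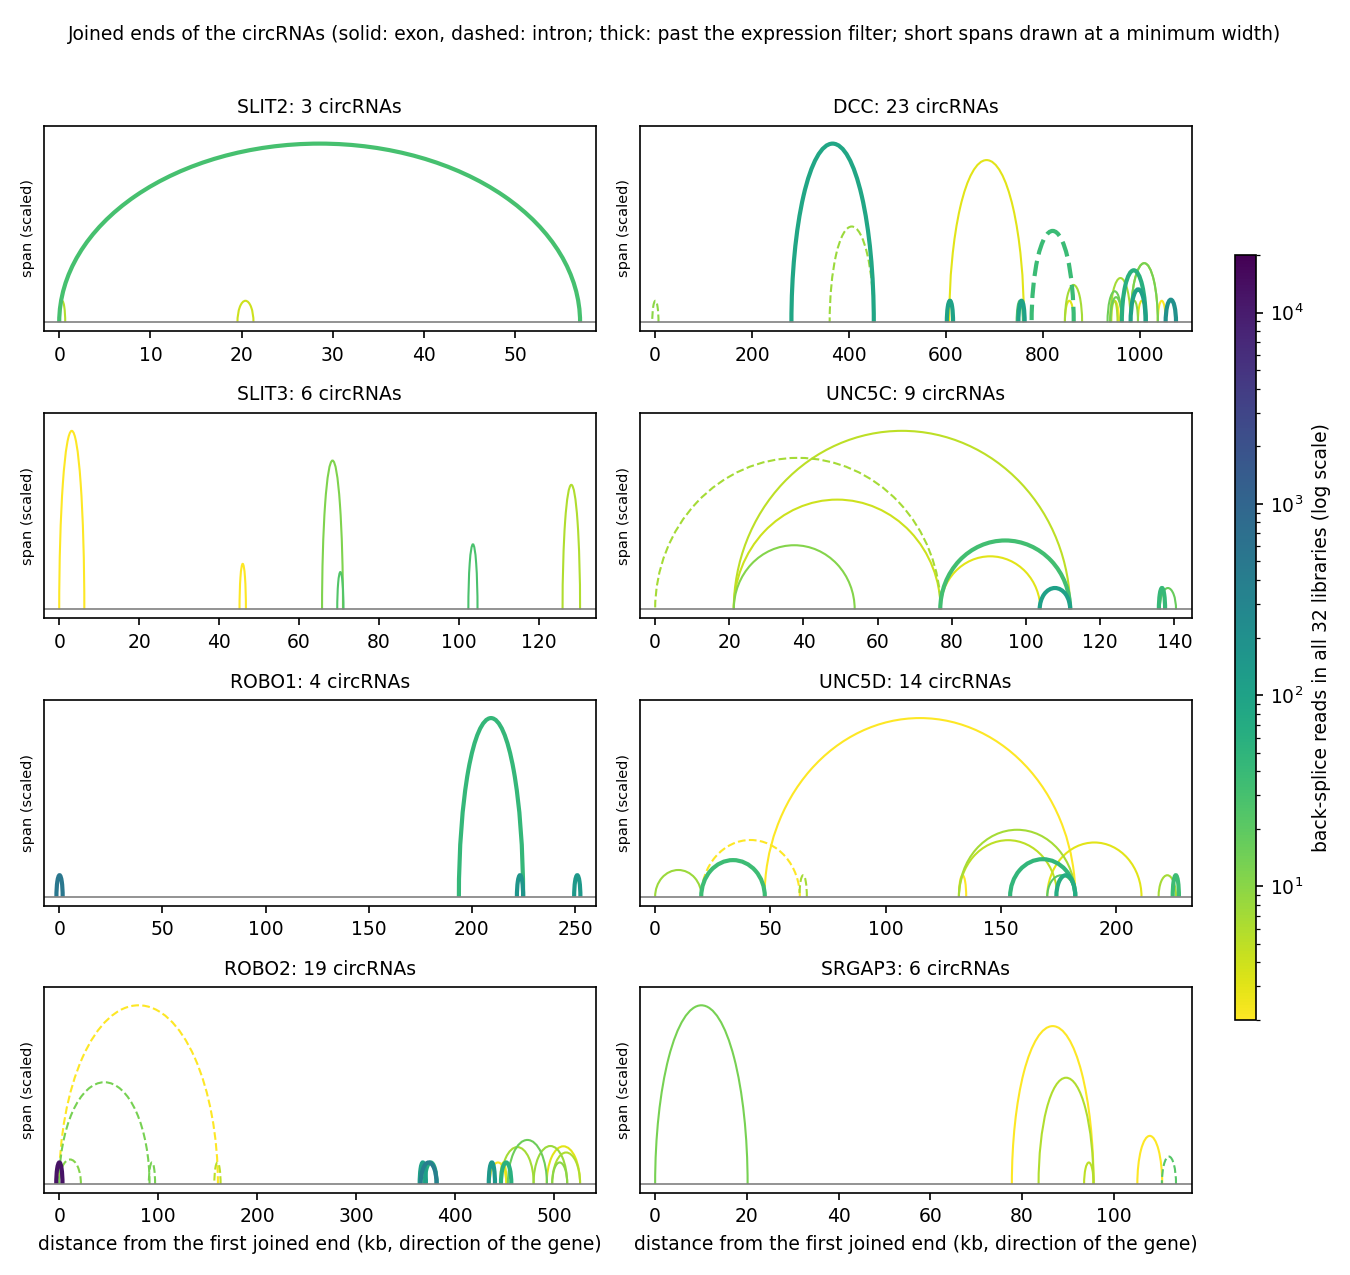
Each arc joins the ends of 1 circRNA along its host gene, in kb from the first joined end in the direction of the gene, with short spans drawn at a minimum width. Colour gives back-splice reads in all 32 libraries on a log scale, and only the short ROBO2 circle at the left edge, with 12616 reads, reaches the dark end of the scale.

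A single circle held most of the reads. The 84 circRNAs had 15809 of 7159279 back-splice reads (0.221%), and 12616 of these (79.8%) belonged to one exonic circRNA of ROBO2 on the plus strand of chromosome 2, from 1573171 to 1573497, with ends 327 bases apart. The genome build is not given in the sources used here, and positions are those of the table. It ranked as number 68 of all circRNAs by reads, was found in 30 libraries and made up 93.6% of the ROBO2 reads. In the 29 libraries with at least 20 ROBO2 reads its share was 71.4% to 100% (median 95.5%), and the lowest share was that of CB_20F. Only 1 CB library had that many ROBO2 reads, so the share in CB against the other regions could not be tested by the rule set for it.

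The leading circRNA of ROBO1, the paralogue of ROBO2, had the same length. It lay on the minus strand of chromosome 2 from 3373522 to 3373848, also 327 bases, with 511 reads in 18 libraries, or 59.1% of the ROBO1 reads. This distance between ends was shared by 11 circRNAs of all those listed, 7 of them exonic. The circles lie 1800024 bases apart on opposite strands, and no circle listed for either gene begins further upstream. Whether reads of one could map to the other was not tested.

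DCC showed the opposite layout, with no dominant circle. Its leading circRNA (chromosome 18, 46660158 to 46681574, plus strand, exonic) had 198 of the gene's 816 reads (24.3%) and was found in 16 libraries. The next of DCC had 104, 100, 99 and 86 reads. A pair of kept DCC circles came from PC_10M alone, one with 60 reads and one with 38. In UNC5C (229 reads) the leading circle, on chromosome 5 from 88202172 to 88210404, had 46.7% of the reads, and in UNC5D (252 reads) the leading circle, on chromosome 8 from 36092070 to 36100304, had 27.4%.

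Several circles shared a joined end. In UNC5D 5 circRNAs ended at 36100304 and had 146 reads together. In ROBO2 4 circRNAs shared the start at 1573171 of the leading circle, and the other 3, all annotated as intronic, had 13, 11 and 2 reads. DCC had 4 circRNAs starting at 46587906 and 3 ending at 46619143, and UNC5C had 3 starting at 88202172. All 9 circRNAs of UNC5C shared an end with another of the gene, as did 17 of 19 of ROBO2 and 19 of 23 of DCC, against 2 of 6 of SLIT3. A circRNA of ROBO2 (13 reads) and one of DCC (10 reads) were listed on the strand opposite to the rest of their gene, both intronic.

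The ligand genes gave few circular reads. SLIT2 had 40 reads, found as 30 in PFC_10F (24.8 TPM), 6 in TC_10M (30.9 TPM) and 4 in CA1_10F (12.2 TPM), each from a different circRNA. SLIT3 had 74 reads in 9 libraries, and its highest summed level was 20.2 TPM in DG_20M. The effector gene SRGAP3 had 51 reads in 5 libraries, at 15.4 TPM in OC_10F, 8.94 in PC_20M, 4.86 in OC_20M, 3.02 in PFC_20M and 1.73 in PFC_10M. Levels of these 3 genes were at 0 in most libraries, and no order of regions could be read from them.

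**Figure D2:**
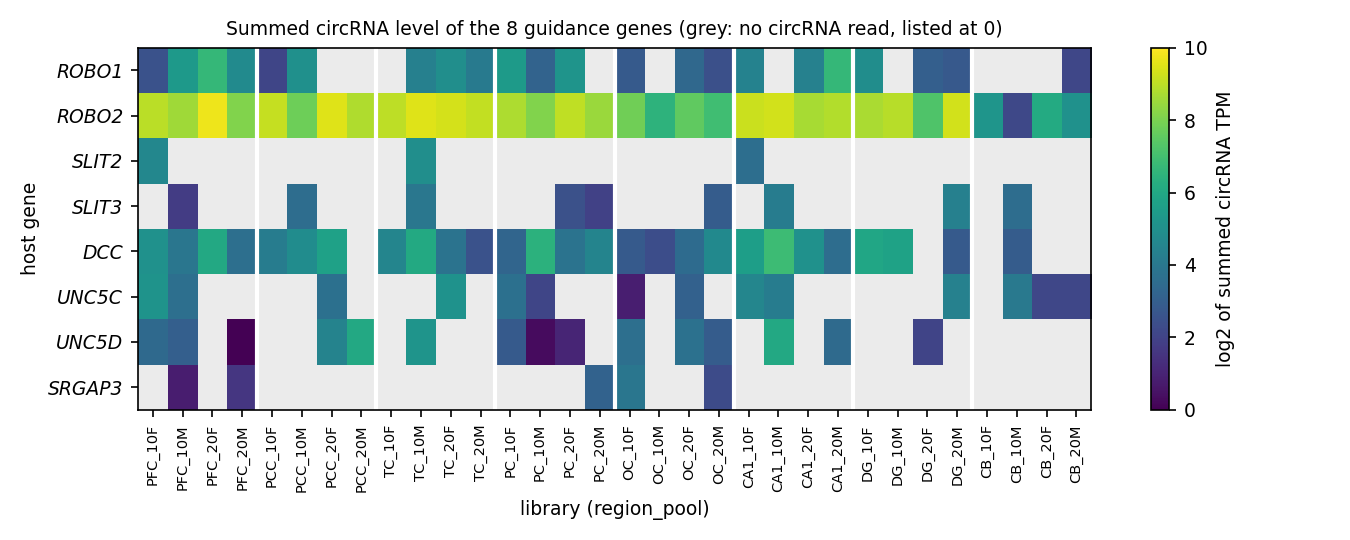
Rows are the 8 host genes and columns the 32 libraries, and colour gives log2 of the summed circRNA TPM, with grey for genes listed at 0. ROBO2 is above 0 in all 32 libraries and DCC in 27, while SLIT2 is found in 3 and SRGAP3 in 5.

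The next question was how the genes varied between regions. ROBO2 circRNAs were found in every library, and the leading circle set their level. Its TPM was 486, 371, 810 and 270 in the 10F, 10M, 20F and 20M pools of PFC, 523, 183, 680 and 453 in PCC, and 486, 695, 636 and 538 in TC. In PC it was 378, 229, 489 and 298, in OC 218, 89.0, 177 and 121, in CA1 564, 611, 410 and 428, and in DG 415, 459, 150 and 609. In CB it was listed at 0 in both 10-year pools and stood at 48.9 in 20F and 33.0 in 20M. Every CB library was below every library of the other regions, and OC was the next lowest region.

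By mean level the order was TC (589 ± 94.0, SD, n = 4), CA1 (503 ± 99.3), PFC (484 ± 234), PCC (460 ± 208), DG (408 ± 191), PC (348 ± 112), OC (151 ± 57.3) and CB (20.5 ± 24.5). The 6 regions from TC to PC overlapped, and their 5 neighbouring pairs gave p from 0.257 to 0.943 (two-sided exact permutation tests of 4 against 4 libraries). PC against OC and OC against CB each gave p = 0.0286 in the exact permutation test, the smallest that 4 against 4 libraries allow, and an adjusted p of 0.10 over the 7 neighbouring pairs.

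**Figure D3:**
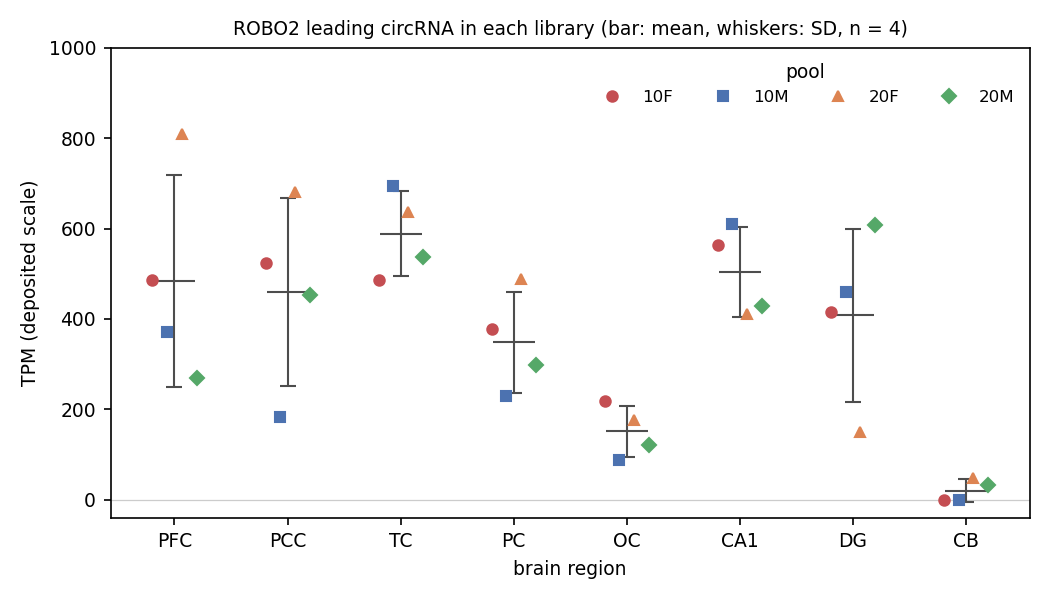
TPM of the ROBO2 leading circRNA in each of the 4 pools of each region, with the mean as a bar and the SD as whiskers (n = 4). All CB libraries lie between 0 and 48.9, OC between 89.0 and 218, and the other regions between 150 and 810.

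In CB the ROBO2 circle fell by 5.18 on the scale of log2(TPM + 2.455) relative to the mean of the other regions (SE 0.517, adjusted p = 1.30e-07, limma with Benjamini-Hochberg adjustment over 17050 circRNAs). With 2 CB libraries at 0 the size depended on the pseudocount and on single libraries: it was -6.87 with a pseudocount of 0.2455 TPM, and -4.48, -4.60, -5.87 and -5.79 without CB_10F, CB_10M, CB_20F and CB_20M, with adjusted p of 8.25e-06 or less in limma. It was the only one of the 25 kept members to pass in either direction, where 0.727% of all circRNAs tested passed as lower in CB and 2% as higher. In reads per 1000000 back-splice reads of a library (RPM) the levels were 0, 0, 255 and 130 in the CB pools 10F, 10M, 20F and 20M, and 620 to 2757 in the other 28 libraries. The exact 95% binomial intervals of the CB libraries reached at most 341 RPM, below the lowest value elsewhere, and they cover counting error only. CB_10M had none of the circle in 176456 reads, an interval of up to 20.9 RPM, and since a single read is not listed the limit may be higher. CB_20F with 176435 reads had 45 reads of the circle. In bulk tissue, fewer cells of a type and less RNA per cell cannot be told apart. The 4 measured astrocyte genes were at 0 in CB, and elsewhere their summed means ran from 5.2 TPM in PCC to 23.4 in PC, with 13.35 in OC. Outside CB, SLC1A2 was found in 15 libraries, GFAP in 2, and AQP4 and SLC1A3 in 1 each. The part of these genes in the result was not tested.

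For the other 18 circRNAs of ROBO2 no difference in CB was detected at this depth. Summed over each library they stood at 37.4 TPM (2 reads), 4.51, 19.6 and 0 in the CB pools 10F, 10M, 20F and 20M, and at 0 to 66.4 (median 23.7) elsewhere. The ranges overlapped fully, with means of 15.4 ± 16.9 (SD, n = 4) and 24.7 ± 19.6 (n = 28), and the two-sided exact permutation test gave p = 0.382. Without CB_10F, where 2 reads make 37.4 TPM, the CB mean was 8.02 and the exact p was 0.162. This comparison was chosen after the values by region were seen, and the 2 differences were not tested against each other. PC had the highest mean of these circles, with 53.2, 48.9, 41.5 and 66.4 TPM in 10F, 10M, 20F and 20M. In PC the second circle of ROBO2, from 1938242 to 1954311 (389 reads in 13 libraries), had a mean of 29.9 ± 21.1 TPM (SD, n = 4), against 15.2 in PCC, 9.36 in CB (1 library, CB_10F, with 2 reads) and 5.37 in PFC. The PC difference of 2.24 on the log2 scale (SE 0.684) had an adjusted p of 0.163 by limma. This second circle was found in 3 of the 4 PC libraries and not in PC_20M. Leaving out the 20M pool, which removes that library, gave an adjusted p of 0.033 by limma, and the circle passed in no other alternative.

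**Figure D4:**
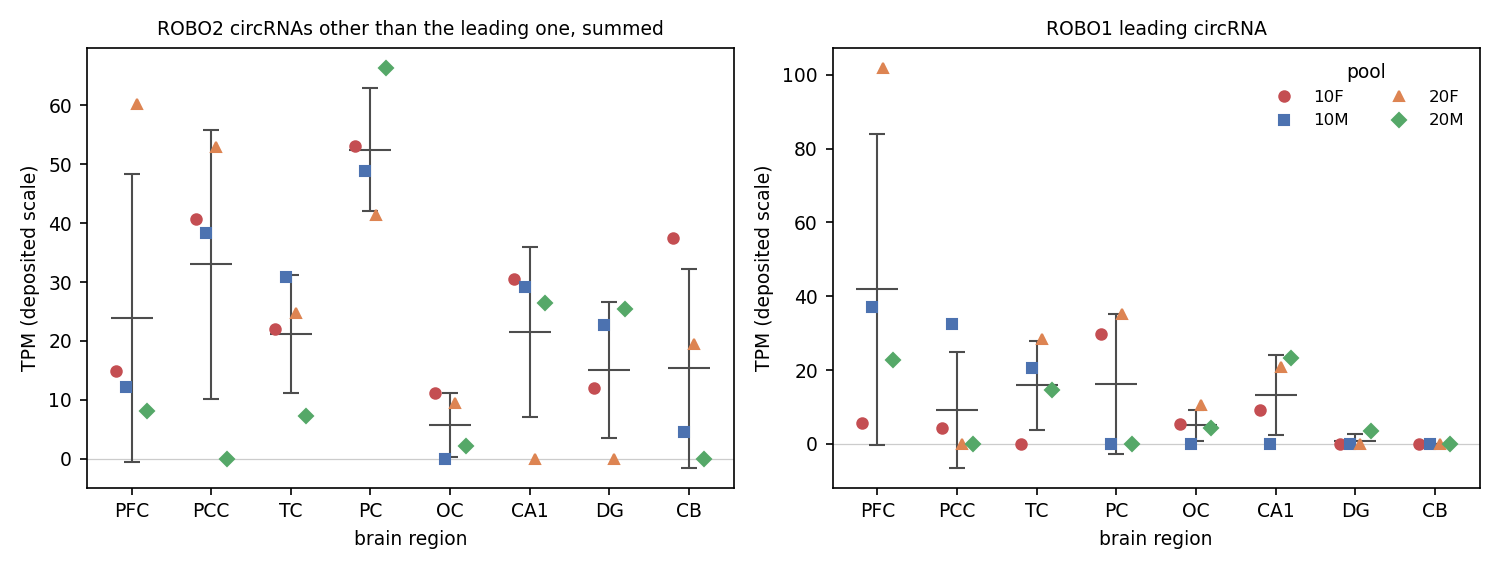
TPM in each of the 4 pools of each region, with the mean as a bar and the SD as whiskers (n = 4), for the ROBO2 circRNAs other than the leading one (left) and for the ROBO1 leading circRNA (right). On the left CB (0 to 37.4) overlaps the other regions, and on the right CB is at 0 in all 4 libraries.

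OC was the neocortical region with least ROBO2. Summed over the gene, OC had 229, 89.0, 186 and 123 TPM in the 10F, 10M, 20F and 20M pools, and the other neocortical libraries had 221 to 870. A single one of those 16 libraries was at or below the highest OC value, and the means were 157 ± 62.7 (SD, n = 4) and 503 ± 181 (n = 16), a ratio of 3.21. The two-sided exact permutation test gave p = 0.00124, but the comparison was chosen after the values were seen. In limma over 8047 host genes ROBO2 fell by 1.66 in OC against the other neocortex (SE 0.397), with an adjusted p of 0.129, and 0.0249% of host genes passed as lower. On the RPM scale the means were 887 ± 310 (n = 4) and 2151 ± 587 (n = 16), a ratio of 2.42. The OC libraries held 136869 to 361224 back-splice reads.

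ROBO1 was patchier than ROBO2. Its leading circle stood at 5.79, 37.0, 102 and 22.7 TPM in the 10F, 10M, 20F and 20M pools of PFC, the only region where all 4 libraries had it. It was listed at 0 in all 4 CB libraries and in 3 of 4 in DG, and elsewhere 2 or 3 of 4 libraries held it. ROBO2's leading circle had 24.7 times as many reads and exceeded it in 30 of 32 libraries, the other 2 holding neither. In PFC the difference of ROBO1's circle was 2.26 on the log2 scale (SE 0.739, adjusted p = 0.302 by limma), where 0.158% of circRNAs passed in either direction. In CB its adjusted p was 0.249. The 2 circles had a Spearman correlation of 0.321 over 32 libraries and of 0.132 over the 28 outside CB, values that also reflect the depth the libraries share. A pair of other ROBO1 circles came mostly from CA1_20M, which gave 120 of the 165 reads of one and 125 of the 144 of the other.

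Among the netrin receptor genes, DCC was the most widely found, in 27 libraries. Its summed TPM in CB was 7.51 in 10M and 0 in the other 3 libraries, and elsewhere it ranged from 0 to 116 with a median of 20.6. The highest value was that of CA1_10M. The means were 1.88 ± 3.76 (SD, n = 4) in CB and 30.4 ± 28.5 (n = 28) elsewhere, and 6 of the 28 libraries were at or below the highest CB value. DCC fell by 2.67 in CB on the log2 scale (SE 0.699, adjusted p = 0.0286, limma over 8047 host genes), and the two-sided exact permutation test of 4 against 28 libraries gave p = 0.0479. The call was lost without any one of the 4 CB libraries, with adjusted p from 0.0521 to 0.148, the highest without CB_10F, and the difference was -4.85 with a pseudocount of 0.2455 TPM. In CB_10F 2 reads made 37.4 TPM, and 20 of the 28 other libraries had a DCC level below that.

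UNC5C and UNC5D did not pass the test in CB. UNC5C, found in 14 libraries, stood at 0, 16.5, 4.35 and 4.40 TPM in the CB pools 10F, 10M, 20F and 20M, and at 0 to 35.6 elsewhere (adjusted p = 0.885 by limma). UNC5D was at 0 in all CB libraries and at 0 to 65.6 elsewhere, with a median of 1.11 and 15 of 28 libraries above 0 (adjusted p = 0.593 by limma). The highest UNC5D levels were those of PCC_20M (65.6) and CA1_10M (65.5), and in CA1_10M they came from a single exonic circle of 179 bases with 18 reads.

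Over the 8 genes, 2 of 8 (ROBO2 and DCC) passed as lower in CB and none as higher, where 1.37% of all host genes passed as lower and 2.26% as higher. The summed level of ROBO2 fell by 3.77 (SE 0.380, adjusted p = 3.65e-07, limma), and by 3.15 without CB_10M. The 4 CB libraries had 37.4, 4.51, 68.4 and 33.0 TPM in 10F, 10M, 20F and 20M, all below the 89.0 to 870 of the other 28 libraries, and the exact permutation test gave p = 2.78e-05, the smallest that 4 of 32 libraries allow. The median log2 difference of the 8 genes was -0.83, against -0.07 over all host genes. With the 3 genes at 0 in all of CB (SLIT2, UNC5D and SRGAP3) set to a floor of 3 reads over the group, it was -0.32, against 0 over all host genes. The 8 genes were chosen with earlier results of these data known, so their count and median do not test them as a group. SLIT2, SLIT3, UNC5C, UNC5D and SRGAP3 were also at 0 in most libraries.

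**Figure D5:**
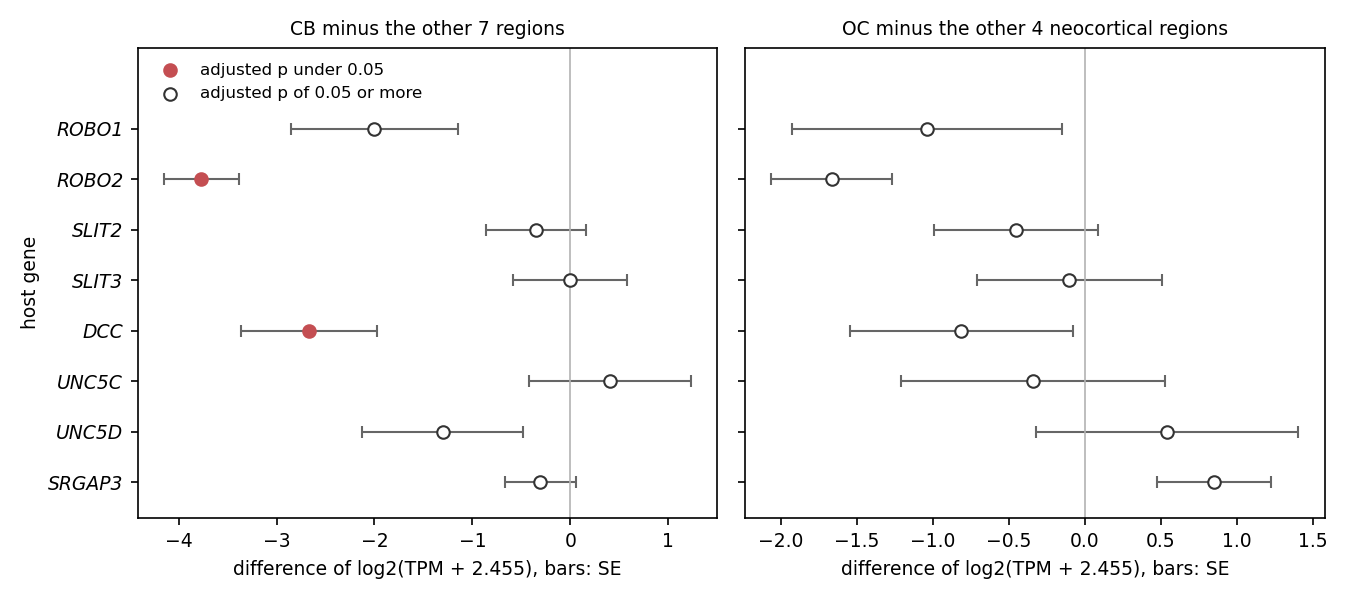
Differences in log2(TPM + 2.455) of the summed circRNA level of each gene, with SE as bars, for CB minus the other 7 regions (left) and OC minus the other 4 neocortical regions (right). Filled points, ROBO2 at -3.77 and DCC at -2.67 in CB, had an adjusted p under 0.05 in limma, and no gene did in OC.

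No member passed in any other comparison. CA1 and DG together were compared with the 5 neocortical regions, where 0.428% of circRNAs and 0.833% of host genes passed in either direction. The ROBO2 leading circle had 150 to 611 TPM in the 8 hippocampal libraries (median 444) and 89.0 to 810 in the 20 neocortical ones (median 416), and the log2 difference was 0.28 (SE 0.405, adjusted p = 0.783 by limma). DCC had 41.5 ± 37.9 TPM (SD, n = 8) and 26.0 ± 23.6 (n = 20), with p = 0.199 in the exact permutation test. The smallest unadjusted p of a member was that of a ROBO1 circle from 3149027 to 3152011, with a difference of 1.26 (SE 0.426) and an adjusted p of 0.313 by limma. With voom on the recovered reads 6 of the 25 members passed as higher in the hippocampal regions, where 12.3% of all circRNAs passed as higher and the median difference of all circRNAs was itself 0.91. Each of the 7 regions other than CB against the rest gave no member in limma. In these comparisons 0.158% (PFC), 0.0938% (PCC), 0.223% (TC), 0.393% (PC), 0.199% (OC), 0.0938% (CA1) and 0.194% (DG) of circRNAs passed in either direction. Of host genes 0.224%, 0.0373%, 0.087%, 0.186%, 0.162%, 0.0746% and 0.609% passed, in the same order. ROBO2 in TC came closest among the genes, with a difference of 1.25 (SE 0.380) and an adjusted p of 0.292. Voom called ROBO2 as higher in PFC, by 0.99 (adjusted p = 0.043) where the median of all host genes was -0.87 and 0.211% of them passed as higher. The rest includes CB in these 7 comparisons, which raises the difference of ROBO2 in every other region. In limma the leading circle was at 1.49 (TC), 1.22 (CA1), 1.05 (PFC), 0.93 (PCC), 0.72 (DG), 0.58 (PC) and -0.81 (OC).

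The effects of age and of sex were each assessed with 16 libraries a side, which rest on 2 pools. The main limma fit and the permutation tests treated these libraries as separate, so their p-values do not measure the spread between pools. No member passed at 20 against 10 years, where 0.0293% of circRNAs and 0% of host genes passed in limma, and none between males and females, where 0% of both passed. Without adjustment, 2 of 25 member circRNAs had p under 0.05 for age and 2 for sex, against 5.26% and 5.31% of all circRNAs.

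For the ROBO2 leading circle the age difference was 0.57 on the log2 scale (SE 0.342, adjusted p = 0.810 by limma), with 0 to 695 TPM at 10 years (median 397) and 33.0 to 810 at 20 years (median 419). It was higher at 20 years in 5 of 8 regions in females and in 5 of 8 in males. In CB both 20-year pools had it and neither 10-year pool did. In CB_10F 2 reads make 37.4 TPM, above the 33.0 of CB_20M, so its 0 cannot be told from that level. The 0 values of the 10-year CB pools also raise the log2 age difference. Males were higher than females in 3 of 8 regions at 10 years and in 2 of 8 at 20 years.

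DCC, the receptor with most circRNAs, had 0 to 116 TPM at 10 years and 0 to 66.0 at 20 years. The means were 36.3 ± 33.1 and 17.4 ± 19.2 (SD, n = 16 each), and the permutation test of 100000 draws gave p = 0.0581. By pool they were 25.1 ± 21.0 (10F), 23.9 ± 24.4 (20F), 47.5 ± 40.3 (10M) and 10.9 ± 9.91 (20M, SD, n = 8 each). The difference thus lay mostly between the male pools. In limma the difference was -1.06 (SE 0.462, adjusted p = 0.796). By the study's test, an unpaired comparison of TPM without adjustment, 1 DCC circle from 46357856 to 46367928 passed as lower at 20 years, found in 3 of 16 libraries against 8 of 16. That test called 2.97% of all circRNAs for age and 2.94% for sex, and for sex it called 1 ROBO2 circle, from 2019290 to 2029741, found in 5 male and 0 female libraries.

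The ligand genes were too rare for a firm comparison. SLIT3 was found in 8 of 16 male and 1 of 16 female libraries, with 5.78 ± 7.35 and 0.346 ± 1.38 TPM (SD, n = 16 each) and p = 0.00520 in the permutation test. Across all host genes its difference of 1.07 (SE 0.384) had an adjusted p of 0.791 by limma. SLIT2 was found in 3 of 16 libraries at 10 years and 0 of 16 at 20 years (adjusted p = 0.796). No difference of the age effect between the sexes passed for any member, with an adjusted p of 0.813 or more for circRNAs and 0.808 or more for genes by limma. Each age of each sex is a single pool, so such a difference could not be told from one between pools.

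ROBO2 had the most reads of the 8, and the host genes with the most similar pattern were found over 1442 other genes present in at least 24 libraries. These were NFASC (Spearman correlation 0.846), CSMD1, DGKB (0.779), GMIP (0.773) and PEX5L (0.768), over 32 libraries and summed TPM, where the median correlation was 0.128. All had lower means in CB, as for CSMD1 with 7.66 TPM against 156 elsewhere, which the choice by likeness to ROBO2 over libraries that include CB largely fixes. Over the 28 libraries outside CB the values were 0.671 to 0.788. Among the 28 pairs of the 8 genes the highest Spearman correlation was that of ROBO2 and DCC, 0.537, and it was 0.374 outside CB. These values describe libraries that share animals and depth.

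The wider pathway was described by a list of 51 further genes (netrins, ligands, co-receptors and intracellular partners) and one of 31 semaphorin, plexin and neuropilin genes. Of these 31 and 23 genes had circRNAs. None passed at the gene level in any comparison, and the median log2 difference in CB was -0.14 for the pathway list and -0.15 for the semaphorin list, or 0 for both with genes at 0 in all of CB set to the floor. Of 92 kept circRNAs of the pathway list, 1 of PAK1, a kinase that acts on the actin skeleton, was higher in CB by 3.43 (SE 0.850, adjusted p = 0.0224 by limma), where 2% of all circRNAs passed as higher, so that the list's count is not above that background. Another, of USP33, a deubiquitinase that binds Robo1, was lower in TC, where it fell by 3.48 (SE 0.686, adjusted p = 0.0206 by limma) and 0.223% of all circRNAs passed in either direction. None of 22 kept circRNAs of the semaphorin list passed.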

How the data were processed

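CircRNA-seq of 32 pooled libraries was analysed. Per the methods, linear RNA was digested with RNase R, reads were trimmed with Cutadapt and aligned with BWA, and CIRI2 kept junctions with at least 2 reads. The values deposited by the authors are called TPM. The methods describe division by a size factor, and within each library the values were whole multiples of one constant to within 0.0181 of a read. Reads recovered from that step served the filter of the methods, which kept 17050 circRNAs. A library with 3 or more reads counted as expressing a circRNA, and 2 such libraries had to occur in each of 2 regions, or in 1 region with 6 in all, unless the total reached 30 reads. The recovered reads also served the scaling alternatives. The genome build is not given in the sources used here.

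limma 3.58.1 in R 4.3.3 was fitted to log2(TPM + 2.455), the pseudocount being the median of the smallest values above 0, over all kept circRNAs and over sums for 8047 host genes, with region, age and sex as terms and Benjamini-Hochberg adjustment at 0.05. Summed levels were also compared by two-sided permutation tests, exact for regions, with p-values not adjusted. These covered the 8 genes, the leading circles of ROBO2 and ROBO1, and the ROBO2 circRNAs other than the leading one. Regions were compared as CB against the rest, also without CB_10F, and as hippocampus against neocortex. OC was compared with the other neocortex and with all other regions outside CB. Age and sex were compared by random draws, and some region tests were repeated on other scales. The limma fit and the exact permutation test were tested on simulated data. Other steps ran in Python 3.11.15 (SciPy 1.17.1 for tests, pandas 2.3.3 for tables, NumPy 2.4.6) and plots were drawn with Matplotlib 3.10.9.

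Named items were, for each gene, the kept circRNA with most reads, kept members in at least 24 libraries, members with an adjusted p under 0.05, all 8 genes, and the 5 genes most like the member with most reads. Circles outside this rule were named after their values were seen. The members and all lists were chosen with earlier results of these data known. Comparisons of OC with the other neocortex and of ROBO2 without its leading circle were added after seeing the data. Same-numbered pools come from the same animals and so pair the libraries across regions; deviations from region means correlated between libraries of one pool with a median r of 0.0360 (range -0.0396 to 0.101). Pool entered as a block in an alternative. Sequences were not used here.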

Additional observations from a re-analysis of the deposited data

Results flagged for a closer look

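Of 44 groups of 4 libraries tested for a library far from the rest, 2 held one, and about 1 in 20 groups would by chance. Both concern the summed TPM of the ROBO2 circRNAs other than the leading one. In PFC the 20F library stood at 60.31, and the other 3 libraries were between 8.07 and 14.88. In CA1 the 20F library, the one with the fewest back-splice reads of its region (37329), was listed at 0, and the other 3 were between 26.51 and 30.47.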

How the results depend on the processing

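The lower level of the ROBO2 leading circRNA in CB kept its direction and its side of the threshold under all 18 alternatives of the limma fit (log2 difference -6.87 to -4.43, highest adjusted p 0.000703), as did the summed level of ROBO2 (-4.16 to -3.15, highest adjusted p 0.000651). With pool as a replicate block the counts of members called were the same in all comparisons (1 circRNA and 2 genes in CB and 0 elsewhere), and the adjusted p for ROBO2 and DCC in CB was 7.26e-07 and 0.0233. The DCC call in CB was lost when only filtered circRNAs were summed (adjusted p 0.111, 1 gene called) and without the 3 shallow libraries (0.164, 1 gene called). It was also lost without each pool, with 1 gene called each time and log2 differences of -2.89 to -2.43, and without each CB library (1 gene called, -3.01 to -2.31). Other counts moved as follows. Voom called 6 circRNAs for hippocampus against neocortex and 1 gene, ROBO2 higher in PFC, for one region against the rest, both from 0. With no filter 1 circRNA of DCC passed as higher in CA1, and leaving out pools gave between 0 and 1 for these regions. The study's unadjusted test gave 1 circRNA for age and 1 for sex. The OC difference of ROBO2 missed the threshold under all 14 alternatives (-1.85 to -1.27). The cause of these moves was not tested. Depth limits the rare genes: CB_10F could show no level under 37.4 TPM. No alternative was left out.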
